A study of Homo sapiens with 8 samples.

Results

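Chemokines, cytokines, acute-phase proteins and complement factors are secreted or membrane-bound proteins by which a cell signals to leukocytes and to its neighbours. Their transcription is usually low at rest and is induced by receptors that act through NF-kB, STAT, AP-1 or interferon regulatory factors. In neuroblastoma (NB), a tumor of the sympathoadrenal lineage, such ligands are studied as links between tumor cells, immune cells and the stroma. The data here cover 40 such genes, chosen by symbol out of 60676 Ensembl genes in a table of RNA-seq counts: 14 chemokines, 11 interleukins and related or gp130 cytokines (TSLP included), 4 colony-stimulating factors or CSF1R ligands, 4 TNF ligands, 4 acute-phase or pattern recognition genes, 2 complement genes and MIF. All 40 had a row in the table, and each row was matched to its symbol by Ensembl ID.

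The cells were IGR-N91, a human NB cell line, cultured as aggregates in hanging drops. They received control medium (serum-containing medium without cultured tissue), medium conditioned by E8 chick sympathetic ganglia (E8-cSGcm, spelled E8-cGScm in the labels), by E8 chick dorsal root ganglia (E8-cDRGcm) or by E15.5 mouse sympathetic ganglia (E15.5-mSGcm), with 2 libraries per group and ganglia of several embryos pooled per medium. Exposure is given as 20 h in the sample labels and as 24 h in the description of the series. All groups are thus 1 cell line, and species and stage of the donor ganglia change together between the chick and mouse media. The methods call the libraries duplicates and, for the study at large, its samples distinct, but do not say whether the 2 libraries of a group came from separate cultures, so p-values measure the spread between these libraries only, which may be technical.

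Library totals ran from 7930765 to 15060744 counts. The 2 E15.5-mSGcm libraries were the smallest and held 17.1% of all counts, and they had the highest share of mitochondrial counts (7.03% and 7.46%, against 4.65% to 6.22% in the other libraries). Of 11 sympathoadrenal markers, 10 were detected in these libraries, and CHGA was listed at 0. Of 13 leukocyte markers 3 were above 3 counts in any library, with TYROBP, CD163, CD3E and CD3D at 0 throughout, AIF1 listed at 0 in a region that cannot be read in this table, and a summed level of 1.23 to 2.65 CPM (counts per 1000000 reads counted in the library) in E15.5-mSGcm and 1.01 to 1.06 CPM in control. The endothelial markers CDH5, EMCN and CLDN5 and the glial markers SOX10, FABP7 and FOXD3 were also at 0.

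A gene was counted as detected when at least 1 library held more than 3 reads, which corresponds to 0.199 to 0.378 CPM depending on the library. By this measure 18 of the 40 genes were detected, 6 had 1 to 3 reads at most and 16 had no read in any library. The detected genes were the chemokines CCL2, CXCL2, CXCL8, CXCL10, CXCL12 and CX3CL1, the gp130 cytokines IL11 and LIF, the interleukins IL7, IL15, IL23A and IL32, the cytokine TSLP, the CSF1R ligands CSF1 and IL34, the TNF ligand TNFSF13B, the pattern recognition protein PTX3 and the complement factor C3. The genes with 1 to 3 reads at most were CCL20, CXCL1, CXCL3, CXCL6, CXCL11 and IL1A. The genes with no read were CCL5, CCL7, CXCL16, IL1B, IL18, IL6, CSF2, CSF3, TNF, LTB, TNFSF10, SAA1, SAA2, LCN2, CFB and MIF.

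Not every 0 is a measurement of a silent gene. TNF, LTB and CFB lie in the MHC region of chromosome 6, where 137 of 142 protein-coding genes (96.5%) had no read in any library, against 4118 of 19837 (20.8%) in the whole table. Genes of that region that nearly every cell uses, such as the ribosomal protein gene RPS18, the RNA helicase DDX39B and the tubulin TUBB, were also at 0, whereas ACTB had 26108 to 67440 reads. MIF lies beside DDT and SMARCB1, both at 0, and 8 of its 10 nearest protein-coding neighbours had no read. Its exons share 94.1% of their length with an overlapping gene. TNF, LTB, CFB and MIF are therefore only listed at 0, with no statement on their expression, and the cause was not tested. CCL5 had 7 of 10 neighbours at 0, SAA1 had 6, and CCL7, IL1B and SAA2 had 5 each. Whether these genes were silent or could not be read was not tested either. IL6 and LCN2, by contrast, had a read in all 10 neighbours, and CSF3 in all but GSDMA, and for them 0 reads allow a level of up to 0.199 to 0.378 CPM per library. These limits cover counting error only.

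**Figure D1:**
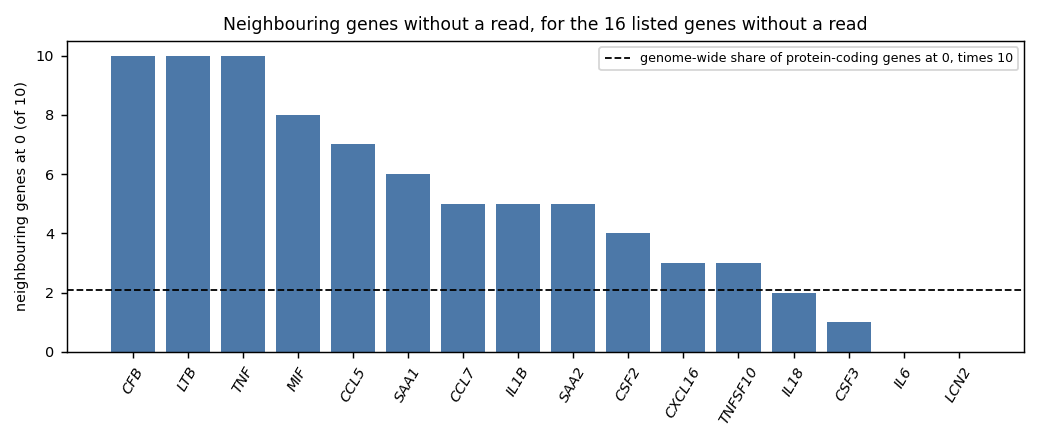
For each of the 16 listed genes without a read, the bar gives how many of its 10 nearest protein-coding genes (5 on each side) also had no read in any of the 8 libraries. CFB, LTB and TNF reach 10, MIF reaches 8, and IL6 and LCN2 are at 0, while the dashed line marks the share of all protein-coding genes at 0 (20.8%) on the same scale.

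Reads of 9 of the 24 genes with any read were found in the 2 E15.5-mSGcm libraries alone: CCL20, CXCL1, CXCL2, CXCL3, CXCL6, CXCL8, CXCL10, CXCL11 and IL32. Over the whole table, 1209 of 32570 genes with a read (3.71%) had reads in these libraries only. No test was made of this difference, and 6 of the 9 genes rest on at most 5 reads in a library.

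Per length (RPKM, the CPM divided by the exonic length in kilobases), the listed gene with the highest level depended on the medium. In control, CX3CL1 led with 4.72 ± 0.237 RPKM (mean ± SD, n = 2), followed by IL7 (3.62 ± 0.116), IL15 (2.08 ± 0.174) and CSF1 (1.95 ± 0.0988), the last pair differing by less than the SD of IL15. In E8-cSGcm the same order held, with CX3CL1 at 3.93 ± 0.202 RPKM and IL7 at 2.52 ± 0.469. In E8-cDRGcm IL11 led with 6.24 ± 0.174 RPKM ahead of CX3CL1 at 3.61 ± 0.0032. In E15.5-mSGcm CCL2 led with 13.5 ± 0.190 RPKM, followed by CX3CL1 (10.7 ± 0.641), CSF1 (3.87 ± 0.233), IL15 (2.66 ± 0.246) and CXCL12 (2.26 ± 0.0269). Fewer expressing cells and less RNA per cell cannot be told apart in these bulk libraries.

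**Figure D2:**
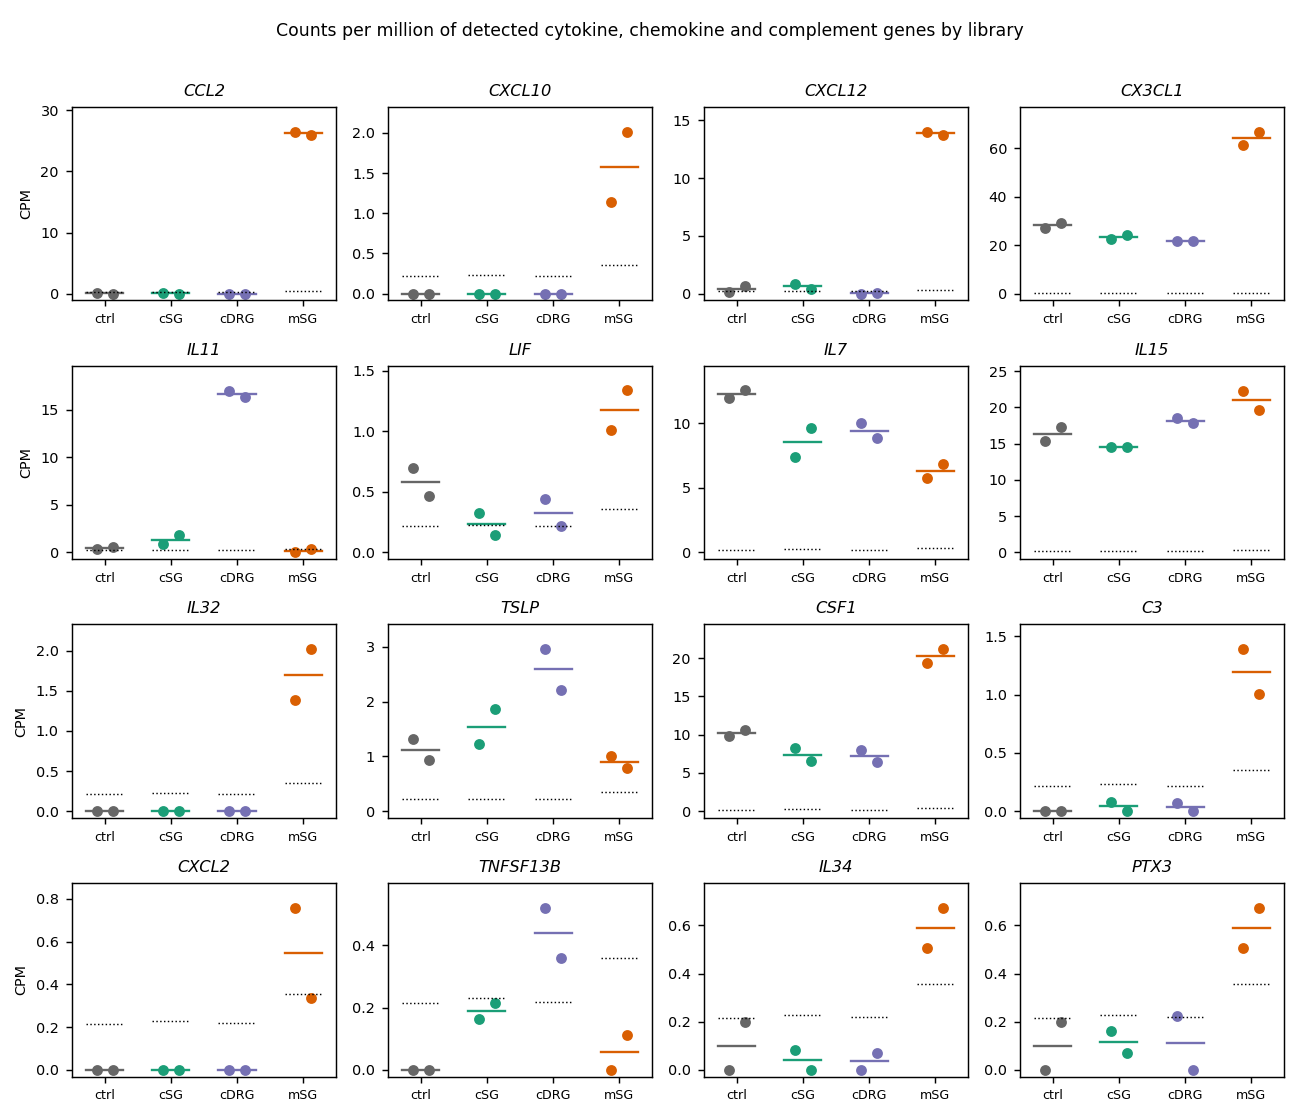
Each panel plots the level of a listed gene in CPM in each of the 8 libraries (points, 2 per group, ctrl control, cSG E8-cSGcm, cDRG E8-cDRGcm, mSG E15.5-mSGcm), with the group mean as a bar and the mean level of 3 reads in that group as a dotted line. CCL2, CXCL10, CXCL12, IL32 and C3 stand above the other groups in both E15.5-mSGcm libraries, and IL11 does so in both E8-cDRGcm libraries.

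The first question was which of these genes responded to each medium compared with control. Of the 40 genes, 12 passed the filter on low counts (filterByExpr) and entered the edgeR quasi-likelihood test with Benjamini-Hochberg adjustment over all 16680 genes tested. CX3CL1, IL7, IL15, TSLP and CSF1 were above the filter's cutoff of 0.757 CPM in all 8 libraries. CCL2, CXCL10, CXCL12, LIF, IL32 and C3 passed only through the E15.5-mSGcm libraries, and IL11 through those of the chick media, so that counts of changed genes among those tested are not a rate for the list, and no median over them is given. Calls needed both an adjusted p under 0.05 and a change of 1.5-fold or more. By this rule 8 of the 40 genes changed in E15.5-mSGcm (7 higher, 1 lower), 3 in E8-cDRGcm (2 higher, 1 lower) and 1 in E8-cSGcm (higher). Over all genes tested, the rule called 13.9% in E15.5-mSGcm (6.65% higher, 7.27% lower), 20.7% in E8-cDRGcm (9.81% higher, 10.9% lower) and 8.59% in E8-cSGcm (4.73% higher, 3.86% lower). A fold against a group without reads is given as a lower bound against 3 reads per library, and one against a group with 1 to 3 reads in all as a ratio with its exact 95% counting interval, since the fitted values of such genes depend on the prior count.

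**Figure D3:**
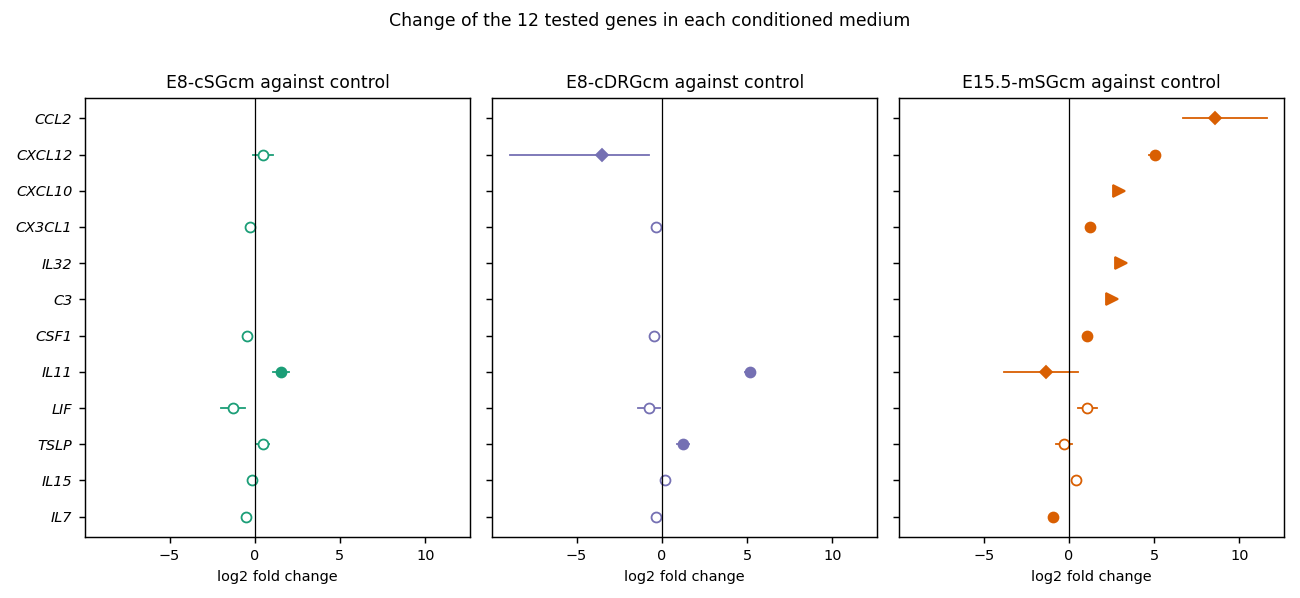
Log2 fold change against control of the 12 tested genes in E8-cSGcm, E8-cDRGcm and E15.5-mSGcm (3 panels, 1 row per gene). Circles are fitted changes with standard error bars (filled where called), diamonds are read ratios with 95% counting intervals where either group had 1 to 3 reads, arrowheads are lower bounds where control had 0 reads, and no point is drawn where both groups were at 3 reads or under. CCL2 and CXCL12 lie farthest to the right in E15.5-mSGcm and IL11 in E8-cDRGcm.

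CCL2 was nearly unread outside the mouse medium. It attracts monocytes and memory T cells through the receptor CCR2. In control it had 2 and 0 reads, against 1 and 0 in E8-cSGcm, 0 and 0 in E8-cDRGcm and 210 and 232 in E15.5-mSGcm. The E15.5-mSGcm libraries thus lay far above all others, with 26.2 ± 0.368 CPM (SD, n = 2). The ratio of E15.5-mSGcm to control was 378 (95% counting interval 104 to 3127, adjusted p = 1.78e-20 by edgeR's quasi-likelihood test). Against E8-cDRGcm, which had no read, CCL2 was at least 120-fold higher (adjusted p = 4.51e-21, edgeR). CCL7, its neighbour on chromosome 17 and a ligand of the same receptor, had no read, and neither had CCR2 itself.

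CXCL12, the ligand of CXCR4 that guides neural crest and hematopoietic cells, had 2 and 10 reads in control, 10 and 6 in E8-cSGcm, 0 and 1 in E8-cDRGcm and 111 and 123 in E15.5-mSGcm. Both E15.5-mSGcm libraries were above every other library, and the control and E8-cSGcm libraries overlapped. Its log2 fold change in E15.5-mSGcm was 5.03 (SE 0.324, adjusted p = 2.15e-15, edgeR). The size of this change rested on the control libraries, at 4.40 without control library 1 and 6.43 without control library 2. In E8-cDRGcm it was lower than in control, with 1 read against 12, a ratio of 11.5 (interval 1.70 to 490, adjusted p = 0.0112, edgeR). This call was lost by DESeq2 (adjusted p = 0.0650, and 0.121 without its independent filtering), after thinning to the smallest library (0.0584), without control library 2 (0.371) and without E8-cDRGcm library 1 (0.102), and its adjusted p ran from 0.00249 to 0.371 over 11 alternatives. CXCR4, its receptor, was lower than in control in both chick media. It had 809 and 921 reads in control, 290 and 387 in E8-cSGcm, 217 and 307 in E8-cDRGcm and 360 and 375 in E15.5-mSGcm. The control libraries were the highest in CPM (61.9, against 25.6, 19.0 and 43.7 in the respective media). CXCR4 fell by 1.28 on the log2 scale in E8-cSGcm (SE 0.0954, adjusted p = 4.16e-12, edgeR) and by 1.66 in E8-cDRGcm (SE 0.0995, adjusted p = 4.23e-15, edgeR). In E15.5-mSGcm its log2 fold change of -0.46 (SE 0.0948, adjusted p = 2.30e-04, edgeR) did not pass the fold limit. The other CXCL12 receptor, ACKR3, had no read.

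CX3CL1, a transmembrane chemokine that also acts as an adhesion molecule for cells bearing CX3CR1, was present in every library. It had 351 and 439 reads in control, 277 and 339 in E8-cSGcm, 291 and 301 in E8-cDRGcm and 486 and 596 in E15.5-mSGcm. In CPM this was 28.2 ± 1.41 in control and 64.0 ± 3.82 in E15.5-mSGcm, without overlap. It rose 2.34-fold in E15.5-mSGcm (log2 fold change 1.23, SE 0.0846, adjusted p = 1.44e-14, edgeR). In the chick media its log2 fold changes were -0.28 and -0.35, with adjusted p of 0.0187 and 0.00189 (edgeR) but under the fold limit of the call. CXCL16, the other membrane-bound chemokine of the list, had no read.

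CXCL10 and CXCL11 are CXC chemokines induced by interferons that attract T cells bearing CXCR3. CXCL10 had 9 and 18 reads in the E15.5-mSGcm libraries and none in the other 6, and was at least 7.52-fold higher than in control (adjusted p = 6.29e-06, edgeR). Its level in E15.5-mSGcm was 1.57 ± 0.622 CPM (SD, n = 2), so that these 2 libraries stood apart from each other too. The call depends on the tool, since DESeq2 gave no adjusted p after its independent filtering and 0.604 without that filtering, a setting added after the data were seen, in a range of 2.29e-07 to 0.604 over 9 alternatives. Without E15.5-mSGcm library 2 it did not pass the filter. CXCL11 had 1 read, in E15.5-mSGcm library 1.

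The ELR+ CXC chemokines, which attract neutrophils through CXCR1 and CXCR2, gave 19 reads in all, and all lay in the E15.5-mSGcm libraries. CXCL2 had 6 and 3 reads there and was at least 2.61-fold higher than in control. CXCL8 had 0 and 5 reads, and the remaining 5 reads were of CXCL1, CXCL3 and CXCL6. None of these 5 genes passed the filter, so none was tested, and CXCL1, CXCL2 and CXCL3 are near-identical paralogs between which reads can be split. CCL20, a ligand of CCR6 on T helper cells, had 1 and 3 reads in the same libraries.

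Among the gp130 cytokines, IL11, which signals through IL11RA and the shared chain IL6ST, followed the dorsal root ganglion medium. It had 5 and 8 reads in control, 11 and 25 in E8-cSGcm, 230 and 229 in E8-cDRGcm and 0 and 3 in E15.5-mSGcm. The E8-cDRGcm libraries were far above the rest, and the E8-cSGcm libraries were both above control but well apart from each other. IL11 rose 36.2-fold in E8-cDRGcm (log2 fold change 5.18, SE 0.276, adjusted p = 4.17e-18, edgeR), to 16.7 ± 0.465 CPM. In E8-cSGcm it rose 2.88-fold (log2 fold change 1.53, SE 0.468, adjusted p = 0.0110, edgeR). The smaller call was lost after thinning to the smallest library (adjusted p = 0.542), without control library 1 (0.0790), without E8-cSGcm library 2 (0.305) and by DESeq2 without independent filtering (0.0690), in a range of 0.00244 to 0.542 over 12 alternatives. In E15.5-mSGcm there were 3 reads against 13 in control, a ratio of 2.54 in favor of control with an interval of 0.697 to 13.9 that spans no change.

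LIF, which signals through LIFR and IL6ST, stayed near the floor with 2 to 12 reads in every library (9 and 7 in control, 4 and 2 in E8-cSGcm, 6 and 3 in E8-cDRGcm, 8 and 12 in E15.5-mSGcm). No comparison with control passed the test, with log2 fold changes of -1.30, -0.75 and 1.08 (SE 0.706, 0.646 and 0.547). IL6, the founding member of the family, had no read. Its receptor IL6R rose in both chick media, with 13 and 14 reads in control, 31 and 26 in E8-cSGcm and 61 and 58 in E8-cDRGcm (log2 fold changes 1.15, SE 0.343, adjusted p = 0.00892, and 2.19, SE 0.299, adjusted p = 1.07e-07, edgeR). The call in E8-cSGcm was lost in 5 of 12 alternatives, among them DESeq2, thinning (adjusted p = 0.120), and the fits without control library 2 (0.0744) and without E8-cSGcm library 1 (0.104), in a range of 0.00892 to 0.232. LIFR rose by 0.93 on the log2 scale in E15.5-mSGcm (SE 0.0536, adjusted p = 8.25e-17, edgeR) and IL11RA fell by 0.97 (SE 0.195, adjusted p = 1.26e-04, edgeR).

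IL7, a growth factor of lymphocyte precursors, had 155 and 189 reads in control, 91 and 135 in E8-cSGcm, 135 and 124 in E8-cDRGcm and 46 and 61 in E15.5-mSGcm. In CPM the control libraries were the highest (12.3 ± 0.395) and those of E15.5-mSGcm the lowest (6.31 ± 0.725), without overlap. It fell by 0.91 on the log2 scale in E15.5-mSGcm (SE 0.173, adjusted p = 5.80e-05, edgeR), and its exons share 9.49% of their length with genes on the opposite strand. Its log2 fold changes in E8-cSGcm and E8-cDRGcm were -0.53 and -0.34 (adjusted p = 0.00521 and 0.0454, edgeR), under the fold limit. IL15, which sustains natural killer and memory T cells, was present in all libraries (175 to 261 reads) and passed no comparison with control at the fold limit. Its log2 fold change was 0.39 in E15.5-mSGcm (adjusted p = 0.00778, edgeR). In E8-cSGcm and E8-cDRGcm it was -0.19 and 0.19 (adjusted p = 0.220 and 0.163, edgeR). TSLP, an epithelial cytokine that acts on dendritic cells, had 17 and 14 reads in control, 15 and 26 in E8-cSGcm, 40 and 31 in E8-cDRGcm and 8 and 7 in E15.5-mSGcm. Both E8-cDRGcm libraries were above both control libraries, and TSLP rose 2.38-fold there (log2 fold change 1.25, SE 0.342, adjusted p = 0.00245, edgeR). This call was lost by DESeq2 (adjusted p = 0.0720), without control library 2 (0.0507) and without E8-cDRGcm library 1 (0.0526), in a range of 0.00200 to 0.134 over 12 alternatives. IL23A, a subunit of IL-23, had 1 to 7 reads per library and was not tested. The receptors IL7R, IL15RA, IL23R and CRLF2 had no read.

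IL32, a cytokine of T and natural killer cells that has no rodent ortholog, had 11 and 18 reads in E15.5-mSGcm and none in the other 6 libraries. It was at least 8.12-fold higher than in control (adjusted p = 2.91e-06, edgeR), and did not pass the filter without E15.5-mSGcm library 2. DESeq2, after its independent filtering, did not call IL32 against control. The IL-1 family gave no such signal, with 2 reads of IL1A in E8-cDRGcm library 2 and none of IL1B or IL18.

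CSF1, the growth factor of macrophages, had 127 and 159 reads in control, 101 and 92 in E8-cSGcm, 108 and 90 in E8-cDRGcm and 154 and 189 in E15.5-mSGcm. The 2 E15.5-mSGcm libraries were the highest in CPM (20.3 ± 1.22 against 10.2 ± 0.518 in control), and CSF1 rose 2.05-fold (log2 fold change 1.03, SE 0.139, adjusted p = 1.60e-07, edgeR). In the chick media its log2 fold changes were -0.48 and -0.46, with adjusted p of 0.0147 and 0.0117 (edgeR) but under the fold limit. IL34, the other CSF1R ligand, had 4 and 6 reads in E15.5-mSGcm and 0 to 3 elsewhere, a ratio to control of 5.69 (interval 1.47 to 32.2) that was not tested across libraries. CSF2 and CSF3 had no read.

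TNFSF13B (BAFF), a survival factor of B cells, was the only one of the 4 listed TNF ligands detected, and TNF and LTB could not be read. It had 0 and 0 reads in control, 2 and 3 in E8-cSGcm, 7 and 5 in E8-cDRGcm and 0 and 1 in E15.5-mSGcm. It was at least 2.09-fold higher in E8-cDRGcm than in control, on 12 reads, and did not pass the filter. Of the acute-phase genes only PTX3, a soluble pattern recognition protein, was detected, with 4 and 6 reads in E15.5-mSGcm and 0 to 3 elsewhere. SAA1, SAA2 and LCN2, classical acute-phase genes, had no read. C3, the central complement factor, had 11 and 9 reads in E15.5-mSGcm, 1 read each in E8-cSGcm and E8-cDRGcm and none in control. It was at least 5.71-fold higher than in control (adjusted p = 4.07e-05, edgeR), and 11.7% of its exonic length is shared with a gene on the same strand, so that some of its reads are uncertain. Without E15.5-mSGcm library 2 it did not pass the filter. DESeq2, after its independent filtering, did not call C3 against control.

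The second question was whether the media differed from one another. E15.5-mSGcm differed from E8-cSGcm, medium of the same kind of ganglion, in 9 of the 40 genes (8 higher, 1 lower), where 22.3% of all genes tested were called (10.2% higher, 12.1% lower). The 8 higher genes were CCL2, CXCL10, CXCL12, CX3CL1, LIF, IL32, CSF1 and C3, with log2 fold changes of 4.54 for CXCL12 (SE 0.309), 1.52 for CSF1 (SE 0.149) and 2.37 for LIF (SE 0.664), and a 2.84-fold difference for CX3CL1. CCL2, CXCL10, CXCL12, LIF, IL32 and C3 passed the filter only through the E15.5-mSGcm libraries, and IL11 only through those of the chick media. Calls of these genes between media are thus not independent of the filter, and the counts are not a rate for the list. IL11 was lower, with 3 reads against 36, a ratio of 7.43 (interval 2.35 to 37.7, adjusted p = 7.94e-04, edgeR). Against E8-cDRGcm, E15.5-mSGcm differed in 10 genes (8 higher, 2 lower), where 26.2% of all genes were called (13.1% higher, 13.1% lower). All 8 genes higher against E8-cSGcm were also higher here, and IL11 (3 reads against 459, ratio 93.8, interval 31.9 to 456) and TSLP (log2 fold change -1.53, SE 0.410, adjusted p = 0.00189, edgeR) were lower. The TSLP call was lost by DESeq2 without independent filtering (adjusted p = 0.0688), in a range of 9.56e-04 to 0.0688 over 12 alternatives. The LIF call was lost against both chick media without E15.5-mSGcm library 2 (adjusted p = 0.0601 and 0.135), and also without E8-cSGcm library 2 (0.0584) or E8-cDRGcm library 2 (0.127), with ranges over 11 alternatives each of 0.00179 to 0.0885 and 0.00581 to 0.209. Its log2 fold change was 3.00 against E8-cSGcm without E8-cSGcm library 1, and 2.41 in place of 1.82 against E8-cDRGcm without E8-cDRGcm library 1. By DESeq2 the CXCL10 call was lost against both chick media (adjusted p = 0.293 and 0.281, in ranges of 2.34e-07 to 0.503 and 1.70e-07 to 0.482 over 10 alternatives each). The 2 chick media differed in 2 genes (1 higher, 1 lower), where 7.49% of all genes were called (2.62% higher, 4.87% lower). IL11 was 12.6-fold higher in E8-cDRGcm than in E8-cSGcm (log2 fold change 3.65, SE 0.227, adjusted p = 3.99e-15, edgeR; 4.25 without E8-cSGcm library 2), and CXCL12 was lower, with 1 read against 16 (ratio 16.2, interval 2.51 to 678, adjusted p = 0.00372, edgeR). The CXCL12 call was lost without E8-cDRGcm library 1 (adjusted p = 0.0564) and after thinning (0.0935), in a range of 0.00160 to 0.0988 over 11 alternatives. These comparisons and those with control share libraries and are not independent of each other.

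Promoter sequences were searched for motifs of factors that act on genes of this kind. Promoters in RefSeq (GRCh38.p14) were given for 26 of the 40 genes, as 32 promoters, and the 250 bases before each start were searched on both strands for 3 motifs: the 10-base kappa B consensus, the AP-1 type motif TGANTCA and an interferon response type motif of 2 copies of GAAA that are 2 bases apart. A kappa B match was found for 15 of the 26 genes (16 of 32 promoters), against 9.96% of all 35116 promoters searched over the same length. TGANTCA was found for 7 genes (8 promoters), against 6.57% of all promoters, and the interferon response type motif for 4 genes (4 promoters), against 3.02%. A match describes the letters only and does not show that a factor bound there.

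CXCL10 is shown because it combines an interferon response type match with 2 kappa B matches, at -221, -177 and -122 from the start, within chr4:76023498-76023747 on the minus strand. The capitals mark the 3 matches.
CXCL10: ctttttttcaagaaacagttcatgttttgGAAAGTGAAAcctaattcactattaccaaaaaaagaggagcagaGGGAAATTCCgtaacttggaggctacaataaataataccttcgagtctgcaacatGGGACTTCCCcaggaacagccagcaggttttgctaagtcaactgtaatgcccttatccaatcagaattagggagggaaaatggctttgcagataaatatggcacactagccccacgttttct

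IL32 is shown as the other gene with reads in E15.5-mSGcm alone that passed the filter, with overlapping kappa B matches (capitals) from -99 to -89, within chr16:3065153-3065402 on the plus strand.
IL32: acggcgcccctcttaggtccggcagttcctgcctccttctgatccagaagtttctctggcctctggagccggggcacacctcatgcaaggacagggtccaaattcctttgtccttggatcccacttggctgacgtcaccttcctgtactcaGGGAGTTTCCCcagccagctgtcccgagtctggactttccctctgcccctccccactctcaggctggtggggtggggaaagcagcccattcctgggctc

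IL11, the gene of the dorsal root ganglion medium, had no kappa B match and 1 TGANTCA match (capitals) at -96, within chr19:55370464-55370713 on the minus strand.
IL11: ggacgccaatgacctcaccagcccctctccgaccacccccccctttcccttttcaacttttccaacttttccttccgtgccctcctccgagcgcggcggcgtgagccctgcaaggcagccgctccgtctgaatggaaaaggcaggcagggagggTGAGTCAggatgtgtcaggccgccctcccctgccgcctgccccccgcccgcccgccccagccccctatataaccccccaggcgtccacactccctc

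The ELR+ CXC chemokines and other genes with few or no reads are shown as 30 bases around their kappa B match (capitals), to compare its letters and its distance from the start. The stretches are chr4:73869304-73869333 (plus strand) for CXCL1, chr4:74099254-74099283 (minus) for CXCL2, chr4:74038749-74038778 (minus) for CXCL3, chr4:73836578-73836607 (plus) for CXCL6, chr2:227813753-227813782 (plus) for CCL20 and chr7:22727117-22727146 (plus) for IL6.
CXCL1: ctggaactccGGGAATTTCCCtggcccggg
CXCL2: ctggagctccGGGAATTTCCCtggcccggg
CXCL3: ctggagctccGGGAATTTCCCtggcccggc
CXCL6: cctgagttcaGGGAATTTCCCcagcatccc
CCL20: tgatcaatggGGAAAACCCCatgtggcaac
IL6: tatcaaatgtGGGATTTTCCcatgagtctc

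The matches of CXCL1, CXCL2, CXCL3 and CXCL6 share the same 11 bases, and begin between -90 and -78. IL6, with a match at -73, had no read in any medium. CXCL12 had none of the 3 motifs in this window, and CXCL8 had TGANTCA alone, at -137. CCL2, C3, CSF1, CX3CL1, IL15, LIF and IL7 were not among the promoters used.

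**Figure D4:**
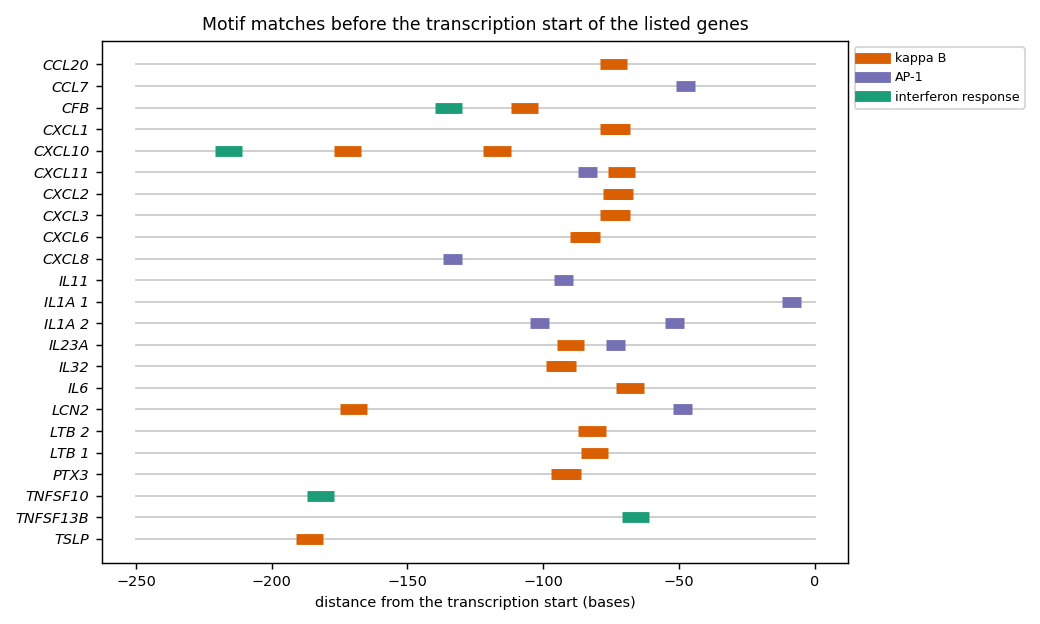
Positions of matches to the kappa B consensus, the AP-1 type motif and the interferon response type motif in the 250 bases before the transcription start, in bases from the start, for each promoter of a listed gene with at least 1 match (numbered where a gene has several). The kappa B matches of CXCL1, CXCL2, CXCL3 and CXCL6 lie between -90 and -68, and CXCL10 alone carries 2 separate ones.

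Genes of the NF-kB system itself were followed as a list of 15 subunits, inhibitors and feedback genes, of which 14 were tested. In E15.5-mSGcm 11 of the 14 rose and none fell, where 6.65% of all genes tested rose and 7.27% fell. The median log2 fold change of the list was 1.53, where the median of all genes was -0.02. TNFAIP3 passed the filter only through the E15.5-mSGcm libraries, so its rise is not independent of the filter, and counts and medians include it. The other 13 genes were at the cutoff in all 8 libraries. No test of the list against other genes was made. In E8-cDRGcm 4 rose and 1 fell, with a median of 0.28, where 9.81% of all genes rose and 10.9% fell. In E8-cSGcm 1 rose and 2 fell, with a median of 0.14, where 4.73% of all genes rose and 3.86% fell. NFKBIA, the inhibitor that retains NF-kB in the cytoplasm, had 386 and 528 reads in control, 304 and 345 in E8-cSGcm, 442 and 481 in E8-cDRGcm and 1729 and 2006 in E15.5-mSGcm. Its reads in E15.5-mSGcm were above all others despite the smaller libraries, and its log2 fold change was 2.81 (SE 0.0699, adjusted p = 1.78e-27, edgeR). NFKBIZ, a nuclear cofactor of the pathway, rose by 3.28 on the same scale (SE 0.142), and BIRC3, an inhibitor of apoptosis, by 2.94 (SE 0.159). TNFAIP3, a deubiquitinase that ends the response, had 1 and 0 reads in control and 11 and 29 in E15.5-mSGcm, a ratio of 68.3 (interval 11.6 to 2765, adjusted p = 1.31e-06, edgeR).

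The chick media shared part of this pattern. The 4 genes that rose in E8-cDRGcm, NFKB2, RELB, BCL3 and NFKBIZ, also rose in E15.5-mSGcm. NFKB2, the subunit of the alternative arm, rose in all 3 media, by 0.91 (SE 0.0959) in E8-cSGcm, 1.69 (SE 0.0894) in E8-cDRGcm and 2.08 (SE 0.0911) in E15.5-mSGcm on the log2 scale. RELB, its partner, rose in E8-cDRGcm by 0.87 (SE 0.138) and in E15.5-mSGcm by 1.88 (SE 0.133). BCL3 had 5.74 CPM in control, 11.4 in E8-cDRGcm and 16.5 in E15.5-mSGcm, and NFKBIZ had 4.14, 6.12 and 39.6. The NFKBIZ call in E8-cDRGcm was lost in 3 of 13 alternatives. NFKB1 fell in E8-cSGcm, from 48.9 CPM in control to 32.0, a call lost in 2 of 13 alternatives. BIRC3 fell in both chick media, by 0.83 (SE 0.241, adjusted p = 0.00775, edgeR) in E8-cSGcm and by 1.35 (SE 0.261, adjusted p = 4.35e-05, edgeR) in E8-cDRGcm. The former call was lost after thinning (adjusted p = 0.0739), by DESeq2 without independent filtering (0.0846) and without E8-cSGcm library 2 (0.0912), in a range of 0.00718 to 0.0912 over 13 alternatives. RELA, the main subunit of the classical arm, had 55.8 CPM in control and 56.8 to 58.8 in the 3 media and was called in none of them (it is named for its role, after its values were seen). Tested directly, 12 of the 14 genes were higher in E15.5-mSGcm than in E8-cSGcm, where 10.2% of all genes tested were higher. Against E8-cDRGcm 10 were higher, where 13.1% of all genes were. None was lower in either comparison.

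Of 54 receptors of the listed ligands, 20 were detected, 23 had no read and 16 were tested. In E8-cSGcm 3 rose and 1 fell, in E8-cDRGcm 5 rose and 1 fell, and in E15.5-mSGcm 4 rose and 2 fell, where the shares of all genes called in these media were 8.59%, 20.7% and 13.9%. No test of the list against other genes was made. TNFRSF10B, a death receptor for TNFSF10, rose in all 3 media, by 0.70 (SE 0.0621), 1.51 (SE 0.0598) and 0.78 (SE 0.0649) on the log2 scale, while TNFSF10 itself had no read. The TNF receptor TNFRSF1B rose in the chick media (1.25, SE 0.271, and 1.64, SE 0.258), with 23 and 26 reads in control, 46 and 65 in E8-cSGcm, 82 and 64 in E8-cDRGcm and 11 and 6 in E15.5-mSGcm. Its call in E8-cSGcm was lost after thinning (adjusted p = 0.0870, in a range of 7.85e-05 to 0.0870 over 12 alternatives). TNFRSF10D, a decoy receptor of TNFSF10, rose by 1.31 (SE 0.232) in E15.5-mSGcm. CD44, which binds MIF together with CD74, fell by 1.20 (SE 0.0578) there. The leukocyte receptors CCR1, CCR2, CXCR2, CXCR3, IL2RG and CSF2RB had no read, while IL2RB had 0 to 6 reads per library and CXCR1, CX3CR1, CXCR6 and IL18R1 at most 2.

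**Figure D5:**
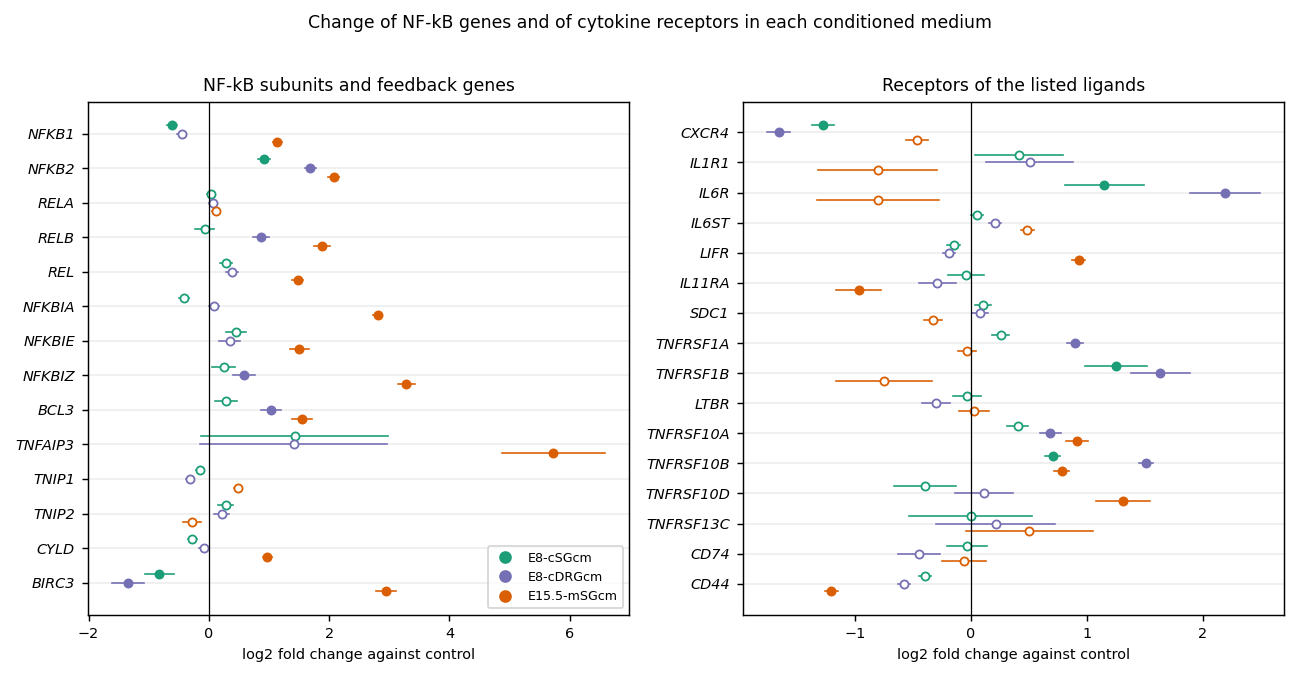
Log2 fold change against control, with standard error bars, of the 14 tested NF-kB genes (left) and the 16 tested receptors (right) in E8-cSGcm, E8-cDRGcm and E15.5-mSGcm. Filled circles are called (adjusted p under 0.05 and at least 1.5-fold), and 11 NF-kB genes are filled to the right of 0 in E15.5-mSGcm, against 4 in E8-cDRGcm and 1 in E8-cSGcm.

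Some genes listed as fibroblast markers changed in E15.5-mSGcm as well, in both directions. Several were present in control too, with PDGFRB at 259 CPM, THY1 at 132, COL1A1 at 107 and LUM at 52.8. COL1A2 was at 3.15 CPM there, DCN at 2.79, COL3A1 at 1.28 and PDGFRA at 0.807. Of 9 fibroblast markers, 8 were detected and FAP was at 0. In E15.5-mSGcm 4 rose, namely PDGFRA (log2 fold change 3.65, SE 0.298), DCN (2.30, SE 0.204), COL1A2 (2.01, SE 0.204) and LUM (0.93, SE 0.0792). COL1A1 fell by 1.82 (SE 0.0887) and THY1 by 0.65 (SE 0.0652). PDGFRB and COL3A1 were not called. Over all genes tested 13.9% were called in this medium. The summed level of the list was 554 to 555 CPM in E15.5-mSGcm and 558 to 561 CPM in control. What part these genes, fibroblasts or leukocytes had in the chemokine reads was not tested.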

How the data were processed

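RNA of IGR-N91 aggregates was sequenced in 8 libraries, 2 for each of 4 media. The authors deposited raw read counts per Ensembl gene, without normalization, made from stranded total RNA libraries with bcl2fastq 2.17.1.14, CutAdapt 1.9.1, TopHat2 2.1.0 and HTSeq 0.11.3 as the submitters' processing notes name them. The methods give hg19 as the genome build and the processing notes hg38, so gene coordinates are not printed; promoter sequences and their positions are from RefSeq GRCh38.p14 and exon lengths and overlaps from GENCODE release 44 on GRCh37. The strand setting of the counting is not given in the sources used here. Column names gave each library's group. Of 60676 IDs, 58611 were matched to symbols, and no row without a gene name was present.

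The tests were made on these counts with edgeR 4.0.16 in R 4.3.3: filterByExpr on the groups, TMM factors, and 1 robust quasi-likelihood fit of all 8 libraries, with Benjamini-Hochberg adjustment over all 16680 genes tested. The fit was also run on simulated data with a fixed spread between libraries and changes in well-read genes only. That run does not cover genes near the floor. The genes described and the lists were chosen with earlier results of these data known. Genes named from other lists are mainly the 4 largest called changes per medium at most, and each of the 40 genes is accounted for. A gene named for 1 medium may also be given for the others, and some genes are named for their role. Alternatives were RLE size factors, DESeq2 1.42.0, filters at 1 count in total or 10 counts in every library, fits to the 2 groups compared alone, no fold limit, the replicate number as a block, thinning to 7930765 counts and leaving out each library. DESeq2 without independent filtering was chosen after seeing the data. Exact intervals were computed with scipy 1.17.1 and figures drawn with matplotlib 3.10.9.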

Additional observations from a re-analysis of the deposited data

How the results depend on the processing

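Of 33 called pairs of a gene and a comparison, none reversed its direction in an alternative that gave a value, 23 kept the call wherever an alternative gave a value, and 29 of 375 such values lost it. Of the 39 pairs not called, 6 changed sign in 12 values, none of them called. Without a library, the log2 fold change of CCL2 in E8-cSGcm against control (-0.77) ran from -2.99 to 2.22, positive without control library 1 or E8-cSGcm library 2 (0.16), and that of CXCL12 there (0.49) from -0.13 to 1.898, negative without control library 1 or E8-cSGcm library 1 (-0.0075), and was -0.018 after thinning. Between the chick media C3 (-0.012) ran from -2.21 to 2.22, positive without E8-cSGcm library 1 or E8-cDRGcm library 2 (0.83), LIF (0.55) from -0.030 without E8-cDRGcm library 1 to 1.19, and CSF1 (0.020) from -0.14 to 0.18, negative without E8-cSGcm library 2 or E8-cDRGcm library 1 (-0.13). After thinning CSF1 was at -0.25 and CX3CL1 (-0.071) at 0.042. In E8-cSGcm against control, where 1 gene was called, the count was 0 with at least 10 counts in every library, 0 after thinning, 0 by DESeq2 without independent filtering, 4 without the fold limit and 0 to 2 without a library. In E8-cDRGcm against control (3 genes) it was 1 by DESeq2, with or without independent filtering, 0 with the filter at 10 counts, 6 without the fold limit and 1 to 3 without a library. In E15.5-mSGcm against control (8 genes) it was 5 by DESeq2, 3 with the filter at 10 counts and 5 to 8 without a library. The lowest came without E15.5-mSGcm library 2, where CXCL10, IL32 and C3 did not pass the filter. Between E8-cDRGcm and E8-cSGcm (2 genes) it was 0 with the filter at 10 counts, 1 with only the libraries compared, 1 by DESeq2 without independent filtering and 1 to 2 without a library. Between E15.5-mSGcm and E8-cSGcm (9 genes) it was 3 with the filter at 10 counts and 7 to 9 without a library, and between E15.5-mSGcm and E8-cDRGcm (10 genes) 2 and 7 to 10. The filter at 10 counts removes by its construction every gene with few reads in any library. The cause of the other losses was not tested. With the replicate number as a block, the counts of called genes in the 6 comparisons were 1, 3, 8, 2, 9 and 10, as without it. Same-numbered libraries did not deviate together over the genes tested (correlations from -0.0437 to 0.042). Whether they shared a culture or a batch is not stated in the sources used here. Of all genes called in E15.5-mSGcm against control, 47.8% were higher, and 41.7% with the filter at 1 count in total. With 2 libraries per group, genes under the filter were not tested, and a lone library is assumed to vary like the other groups where the other is left out.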

Other observations

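Other secreted ligands of the immune system stayed mostly unread. Of 67 such genes outside the 40, 11 were detected, 43 had no read and 7 were tested. LTA, a neighbour of TNF in the MHC region, is among those without a read and is only listed at 0. In E15.5-mSGcm 3 rose and none fell by edgeR's quasi-likelihood test, where 13.9% of all genes were called, but only 1 was called by DESeq2, without control library 2 or without E15.5-mSGcm library 2, and none with the filter at 10 counts. IL16, a ligand of CD4, had 12 and 11 reads in control, 3 and 2 in E8-cSGcm, 15 and 16 in E8-cDRGcm and 25 and 34 in E15.5-mSGcm. It rose by 2.11 on the log2 scale in E15.5-mSGcm (SE 0.376) and fell by 2.06 in E8-cSGcm (SE 0.633), a call lost in 4 of 10 alternatives (adjusted p from 0.0108 to 0.145), among them those without control library 1 (0.0681) and without E8-cSGcm library 2 (0.112). TNFSF4, the ligand of OX40, rose by 1.44 (SE 0.476) and the gp130 cytokine CTF1 by 1.29 (SE 0.448) in E15.5-mSGcm. The TNFSF4 call was lost in 6 of 12 alternatives (adjusted p from 0.00824 to 0.236) and the CTF1 call in 4 of 12 (0.0156 to 0.291), DESeq2 included for both. The only call in E8-cDRGcm was the mucosal chemokine CCL28, with 45 and 58 reads in control and 13 and 23 there, which fell by 1.44 (SE 0.300).

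Of 39 other acute-phase and complement genes, 14 were detected, 20 had no read and 12 were tested. Among those without a read, C2, C4A and C4B lie in the MHC region and are only listed at 0, with no statement on their expression. In both chick media 3 rose and none fell, where 8.59% of all genes were called in E8-cSGcm and 20.7% in E8-cDRGcm. In E8-cSGcm 1 was called by DESeq2, with the filter at 10 counts or after thinning, and in E8-cDRGcm 2 were called by DESeq2 and 1 with that filter or after thinning. CD55, a surface inhibitor of complement, had 4 and 2 reads in control, 12 and 12 in E8-cSGcm, 23 and 14 in E8-cDRGcm and 1 and 0 in E15.5-mSGcm, and rose by 2.03 (SE 0.648) and 2.63 (SE 0.594) in the chick media. The complement inhibitor CD59 rose by 0.66 (SE 0.111) and 0.63 (SE 0.111) and the protease gene C1S, on 3 and 3 reads in control, by 1.84 (SE 0.642) and 2.13 (SE 0.614). CD55 and C1S passed the filter only through libraries of the chick media. Their rises there are thus not independent of the filter, and the counts include them. In E8-cSGcm the CD55 call was lost in 4 of 11 alternatives (adjusted p from 0.0138 to 0.285) and the C1S call in 4 of 9 (0.0256 to 0.361), and in E8-cDRGcm the C1S call was lost by DESeq2 (0.0661). In E15.5-mSGcm 2 rose and 1 fell: MASP2, with 7 and 9 reads there, by 1.92 (SE 0.733), CLU by 0.77 (SE 0.122), and the C1 inhibitor gene SERPING1 fell by 0.78 (SE 0.221). Over all genes tested 13.9% were called in this medium. MASP2 passed the filter only through the E15.5-mSGcm libraries, so its rise is not independent of the filter. The MASP2 call was lost in 5 of 9 alternatives (adjusted p from 0.0162 to 0.460), without either E15.5-mSGcm library among them, and the SERPING1 call in 3 of 13 (6.67e-04 to 0.0991).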
